A study of Mus musculus with 6 samples.

Results

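The autophagy core machinery was followed in mouse testis RNA from 3 libraries labelled Tmc7 knockout (called knockout-labelled below) and 3 control libraries labelled heterozygote, all of the C57BL6 strain. The members were the protein-coding entries whose symbol starts with Atg and a digit, together with 18 named genes of initiation, membrane nucleation, conjugation to lipid and cargo binding. This gave 37 of the 55711 entries in the deposited table. Both groups carry at least 1 mutated Tmc7 copy by their labels, with no wild-type group among the samples, and the labels give neither the allele nor the age of the animals. Nothing in them ties a library to an animal of its own, so each p-value speaks of the spread among these libraries, part of which may be technical. Values are FPKM, reads divided by the deposited gene length in kilobases and by a size for each library. Levels of different genes are set side by side on this scale. Such comparisons depend on the deposited length, which was not checked against the transcripts made in testis.

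Autophagy encloses cytoplasm in a double membrane, the autophagosome, and delivers it to lysosomes. A kinase complex around ULK1 or ULK2 starts the process, and a class III phosphatidylinositol 3-kinase complex marks the membrane. WIPI proteins read that mark, ATG9 and ATG2 proteins supply and shuttle lipid, and 2 ubiquitin-like conjugation systems attach small proteins to the membrane. In mouse testis the pathway is known for its part in building the acrosome, since loss of Atg7 in germ cells gives malformed acrosomes.

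Library depth, worked back from the FPKM values, was 17397662 to 19343479 reads in the knockout-labelled libraries and 17059486 to 18629233 reads in the control libraries. Tmc7 itself was at 43.8, 41.9 and 35.1 FPKM in the knockout-labelled libraries and at 39.1, 37.7 and 37.2 FPKM in the control libraries. The level of this transcript is thus no check of the genotype, and every direction below rests on the labels alone. Over the 6 libraries 19168 genes averaged 0.5 FPKM or more. Of these, 0 passed a limma test on log2(FPKM + 1) at a Benjamini-Hochberg adjusted p under 0.05, a share of 0%, and 741 had an unadjusted p under 0.05, a share of 3.87%.

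The testis transcribed nearly the whole pathway, with a leading gene by FPKM in most families. Means over the 6 libraries ran from 0.187 FPKM for Atg16l2 to 160 FPKM for Map1lc3a, leaving out Atg4a-ps at 0.049 FPKM (1 to 4 reads per library). Map1lc3a, Gabarap and Nbr1 stood highest, with group means between 95.4 and 165 FPKM, and 33 of the 37 members passed the filter of 0.5 FPKM. Of these 33, 0 passed the test, so no autophagy gene is called as changed. The median log2 difference over them, labelled knockout minus control on the log2(FPKM + 1) scale, was 0.0078, against -0.0058 over all genes tested. This scale understates differences of genes with low values. By mean, 18 members were higher and 15 lower in the knockout-labelled libraries, against 9315 higher and 9853 lower of all genes tested. The limma adjusted p of the members ran between 0.868 and 0.999. The 95% intervals of the 33 differences together spanned -0.77 to 0.80, so none reached a log2 difference of 1 in either direction. The median standard error was 0.113 for the members and 0.136 for all genes tested.

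**Figure D1:**
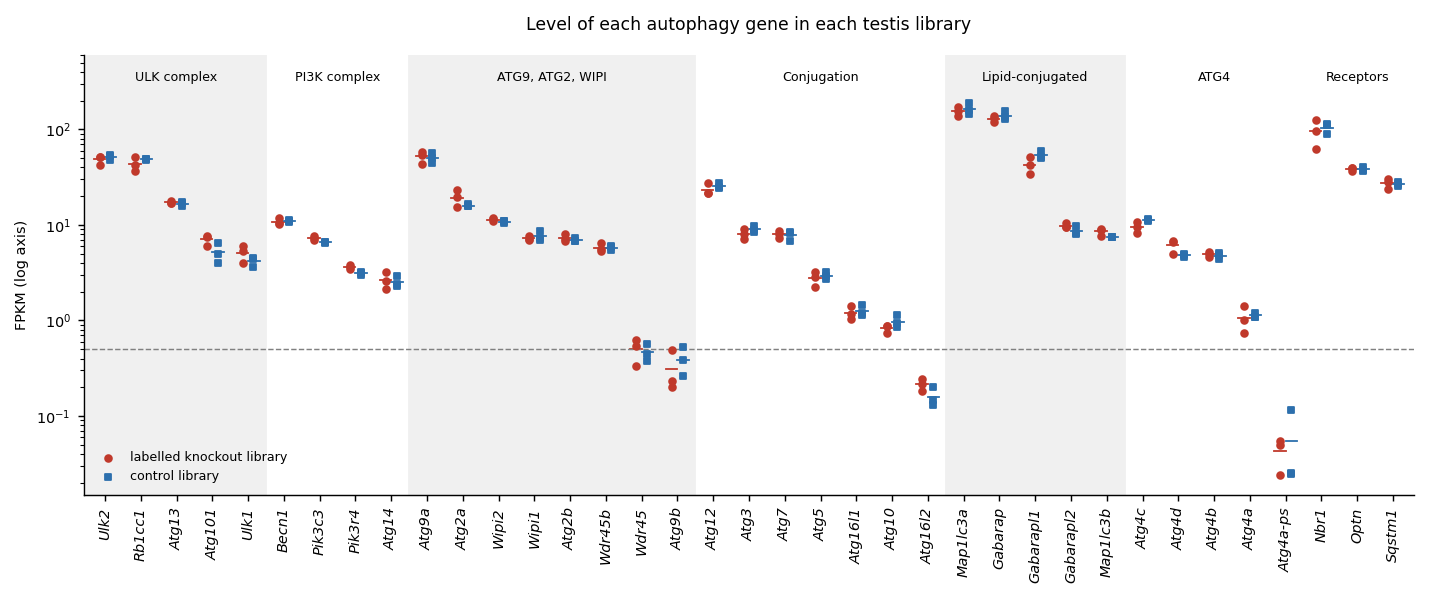
FPKM of the 37 autophagy genes (log axis), ordered by role and then by level; circles are the 3 knockout-labelled libraries, squares the 3 control libraries, short lines the group means, and the dashed line the filter of 0.5 FPKM. Map1lc3a, Gabarap and Nbr1 stand highest, 4 genes lie below the filter by mean, and for most genes the ranges of both groups overlap at least in part.

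Initiation was led by Ulk2 and Rb1cc1. Ulk2, a kinase that starts autophagy, was at 51.95, 51.4 and 42.5 FPKM in the knockout-labelled libraries and at 54.2, 53.4 and 48.4 FPKM in the control libraries. Rb1cc1, which encodes the scaffold FIP200, was at 51.2, 42.01 and 36.5 FPKM in the knockout-labelled libraries and at 48.04, 49.1 and 48.9 FPKM in the control libraries. For both genes knockout-labelled library 3 was lowest of the 6, and the groups overlapped. Ulk1, the more widely studied kinase of the pair, averaged 5.13 ± 1.002 FPKM in the knockout-labelled libraries and 4.18 ± 0.439 FPKM in the control libraries (SD, n = 3 each), well below Ulk2 in every library. Atg13, the adaptor that joins kinase and scaffold, was at 17.0, 16.9 and 17.9 FPKM in the knockout-labelled libraries and at 16.9, 15.9 and 17.3 FPKM in the control libraries. It had the smallest standard error of the complex (0.081), with a log2 difference of 0.05 and a 95% interval from -0.14 to 0.24.

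Atg101, the partner that stabilises ATG13, had the smallest unadjusted p of all members. The gene lies on chromosome 15 from 101284272 to 101290945 on the plus strand in GRCm38. It was at 6.03, 7.73 and 7.45 FPKM in the knockout-labelled libraries and at 4.95, 4.02 and 6.55 FPKM in the control libraries. Knockout-labelled libraries 2 and 3 were above all controls, while library 1 was below control library 3, so the groups overlapped. The log2 difference was 0.40 (standard error 0.17), with a limma p of 0.0488 and an adjusted p of 0.868. It was the only one of 33 members, or 3.03%, with an unadjusted p under 0.05, near the 3.87% of all genes tested. The value rests on 119 to 232 reads per library. By limma-voom on recovered reads, 1 gene of 20556 passed (0.00486%), which is no member, and 3 of 36 tested members had an unadjusted p under 0.05 (8.33%, against 3.8% of all genes tested), namely Atg101, Atg4d and Gabarapl1.

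The class III phosphatidylinositol 3-kinase complex makes the lipid that later autophagy proteins bind. Becn1, its regulatory subunit beclin 1, was at 10.4, 10.2 and 11.8 FPKM in the knockout-labelled libraries and at 10.6, 10.97 and 11.3 FPKM in the control libraries, with overlapping groups. Its value is uncertain, because 43.9% of its exon bases overlap exons of other genes, chiefly Cntd1 on the opposite strand, which was itself at 12.2 ± 1.05 FPKM in the knockout-labelled libraries and 13.2 ± 1.14 FPKM in the control libraries (SD, n = 3 each). Whether counting used strand is not stated in the labels or the table. Pik3c3, the catalytic subunit VPS34, was at 6.96, 7.68 and 7.26 FPKM in the knockout-labelled libraries and at 6.64, 6.69 and 6.42 FPKM in the control libraries. Pik3r4, its partner kinase VPS15, was at 3.498, 3.81 and 3.61 FPKM in the knockout-labelled libraries and at 2.96, 3.18 and 3.25 FPKM in the control libraries. In both genes all 3 knockout-labelled libraries lay above all 3 controls, by small margins, with log2 differences of 0.13 and 0.17 and a limma adjusted p of 0.868 each. Atg14, which directs the complex to autophagy, averaged 2.65 ± 0.557 FPKM in the knockout-labelled libraries and 2.55 ± 0.326 FPKM in the control libraries (SD, n = 3 each).

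Among all tested members, 5 of 33 had groups that did not overlap, 15.2% against 8.56% of all genes tested. They were Pik3c3, Pik3r4, Wipi2 and Map1lc3b, with higher values in the knockout-labelled libraries (12.1% of members against 4.15% of all genes), and Atg4c, with lower values (3.03% against 4.41%). None of these 5 passed the test.

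Among the genes of ATG9, ATG2 and WIPI proteins, Atg9a encodes the transmembrane scramblase of the pathway. It was at 54.1, 58.7 and 43.9 FPKM in the knockout-labelled libraries and at 56.3, 50.5 and 44.8 FPKM in the control libraries. The groups overlapped throughout, and its relative Atg9b was below the filter, at 0.310 ± 0.160 FPKM in the knockout-labelled libraries and 0.390 ± 0.130 FPKM in the control libraries (SD, n = 3 each). Atg9a shares 32.6% of its exon bases with other gene models, so its value is uncertain. Most of that is with Gm29253 on the same strand, which was listed at 0 in every library. Atg2a, a lipid transfer protein, was at 15.3, 23.4 and 19.4 FPKM in the knockout-labelled libraries and at 16.4, 15.8 and 15.8 FPKM in the control libraries. Knockout-labelled library 1 was lowest of the 6 and libraries 2 and 3 highest, and the log2 difference was 0.25 (standard error 0.15). Wipi2, which reads the phosphoinositide mark and recruits ATG16L1, was at 10.9, 11.5 and 11.8 FPKM in the knockout-labelled libraries and at 10.9, 10.4 and 10.9 FPKM in the control libraries. Although its groups did not overlap, the lowest labelled knockout value, 10.95 FPKM, was barely above the highest control value of 10.93 FPKM.

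Wipi1, Atg2b and Wdr45b had group means between 5.78 and 7.63 FPKM and log2 differences from -0.06 to 0.06. Wdr45, an X-linked relative of Wdr45b, was below the filter at 0.498 ± 0.147 FPKM in the knockout-labelled libraries and 0.463 ± 0.0987 FPKM in the control libraries (SD, n = 3 each), on 21 to 40 reads per library. It shares 24.7% of its exon bases with Gm45208 on the same strand, which was listed at 0 in every library, so its value is uncertain. Wdr45b was 10.3 to 15.997 times as high as Wdr45 within the 6 libraries.

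The genes of the conjugation systems were led by Atg12, which encodes the ubiquitin-like protein that is joined to ATG5. Atg12 was at 27.3, 21.4 and 21.5 FPKM in the knockout-labelled libraries and at 24.4, 25.0 and 27.6 FPKM in the control libraries. Atg3, the E2-like enzyme of the lipid conjugation step, was at 9.09, 7.97 and 7.16 FPKM in the knockout-labelled libraries and at 8.48, 8.87 and 9.80 FPKM in the control libraries. In both, knockout-labelled libraries 2 and 3 were the lowest of the 6 and library 1 lay among the controls, with log2 differences of -0.13 and -0.15. Atg7, the E1-like enzyme that activates both systems, was at 7.98, 8.67 and 7.29 FPKM in the knockout-labelled libraries and at 8.30, 6.83 and 8.47 FPKM in the control libraries. Its log2 difference was 0.02 with a 95% interval from -0.24 to 0.29. Atg5 averaged 2.76 ± 0.488 FPKM in the knockout-labelled libraries and 2.95 ± 0.233 FPKM in the control libraries (SD, n = 3 each). Atg12, to which its protein is joined, was 7.51 to 10.1 times as high within the 6 libraries. Atg16l1, which places the ATG12 and ATG5 conjugate on the membrane, and Atg10, the E2-like enzyme for ATG12, had group means between 0.826 and 1.27 FPKM. Atg16l2 was below the filter, at 0.215 ± 0.0319 FPKM in the knockout-labelled libraries and 0.159 ± 0.0375 FPKM in the control libraries (SD, n = 3 each). By mean 5 of the 6 tested genes of this role were lower in the knockout-labelled libraries, where 9853 of all 19168 genes tested were lower, and 0 passed.

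TFEB and TFE3, transcription factors that drive autophagy and lysosome genes, read a sequence built around the E-box CACGTG, and CREM, a spermatid activator, reads the cAMP response element TGACGTCA. Both motifs read the same on either strand. Windows from 250 bases before to 50 bases after a RefSeq start were found for 29 members, with 32 windows among them, in GRCm38.p6. The E-box was in 4 of the 32 windows of members, those of Atg3, Atg5, Atg7 and Atg14, and in 7.15% of 32851 windows of all genes. The Atg7 window (chromosome 6, 114670846 to 114671145) lies well inside the deposited gene, which starts at 114643097. The cAMP response element was in 2 of the 32 windows of members, those of Atg5 and Atg16l2, and in 1.79% of all windows. The windows of Atg3 and Atg5, at the start of the gene model, and of Atg14, at a RefSeq start inside the span of the deposited gene, are shown because Atg3 holds 2 E-boxes, Atg5 holds both motifs and Atg14 holds its E-box across the start. Capitals mark the E-box and, in Atg5 after it, the cAMP response element.
Atg3, chr16:45158579-45158878, plus strand: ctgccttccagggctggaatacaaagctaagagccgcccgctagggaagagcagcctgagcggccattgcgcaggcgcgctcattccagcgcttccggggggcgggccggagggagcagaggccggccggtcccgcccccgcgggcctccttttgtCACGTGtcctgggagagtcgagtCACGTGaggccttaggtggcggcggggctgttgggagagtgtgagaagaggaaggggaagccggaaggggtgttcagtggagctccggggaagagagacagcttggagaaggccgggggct
Atg5, chr10:44268089-44268388, plus strand: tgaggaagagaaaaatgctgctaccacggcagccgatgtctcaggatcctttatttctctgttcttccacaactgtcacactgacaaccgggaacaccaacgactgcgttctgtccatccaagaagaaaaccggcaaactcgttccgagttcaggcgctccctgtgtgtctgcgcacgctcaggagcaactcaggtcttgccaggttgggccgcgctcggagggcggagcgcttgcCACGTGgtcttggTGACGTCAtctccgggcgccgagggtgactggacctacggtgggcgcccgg
Atg14, chr14:47568385-47568684, minus strand: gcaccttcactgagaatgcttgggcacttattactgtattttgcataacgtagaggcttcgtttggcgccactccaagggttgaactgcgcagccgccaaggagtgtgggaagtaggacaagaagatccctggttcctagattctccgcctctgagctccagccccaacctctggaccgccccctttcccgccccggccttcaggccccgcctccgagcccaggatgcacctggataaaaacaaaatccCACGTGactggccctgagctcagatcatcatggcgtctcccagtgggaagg
These are matches of letters only, and binding was not measured. The log2 differences of Atg3, Atg5, Atg7 and Atg14 were -0.15, -0.08, 0.02 and 0.03.

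The genes of the small proteins that are joined to lipid, which coat the autophagosome and hold its cargo, included the 2 of highest mean FPKM among all members. Map1lc3a (chromosome 2, 155276297 to 155278073 in GRCm38) had 173, 137 and 154 FPKM in the knockout-labelled libraries and 191, 159 and 145 FPKM in the control libraries. Gabarap was at 140.1, 119 and 131 FPKM in the knockout-labelled libraries and at 155, 127 and 135 FPKM in the control libraries. Both genes ranked among the top 400 of all entries by mean FPKM, at 273 and 358, and their groups overlapped. Map1lc3b, the form most used as an autophagy marker in other cells, was at 7.70, 9.15 and 8.80 FPKM in the knockout-labelled libraries and at 7.54, 7.49 and 7.49 FPKM in the control libraries. Its groups did not overlap, though knockout-labelled library 1 stood close to the controls, and the log2 difference was 0.16 (standard error 0.09), with a limma adjusted p of 0.868. Gabarapl2, also called GATE-16, was at 9.60, 10.4 and 9.46 FPKM in the knockout-labelled libraries and at 9.80, 8.20 and 8.13 FPKM in the control libraries. Its log2 difference was 0.16, the groups overlapped, and 15.3% of the 31-base words of its transcripts also occur in other genes, 11.2% in Gm3724, so its value is uncertain.

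Gabarapl1 had the lowest log2 difference of the 33 members. It lies on chromosome 6 from 129533160 to 129542346 on the plus strand in GRCm38. It was at 51.9, 42.5 and 34.5 FPKM in the knockout-labelled libraries and at 58.8, 51.9 and 50.3 FPKM in the control libraries. Knockout-labelled libraries 2 and 3 were below all controls and library 1 lay between control libraries 1 and 3. The log2 difference was -0.33 (standard error 0.15), with a 95% interval from -0.69 to 0.03 (limma adjusted p = 0.868). The opposite-strand gene 1700101I11Rik covers 28.3% of its exon bases, so the value of Gabarapl1 is uncertain. 1700101I11Rik was at 4.91 ± 1.15 FPKM in the knockout-labelled libraries and 5.82 ± 0.329 FPKM in the control libraries (SD, n = 3 each).

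The ATG4 proteases, which trim these small proteins before conjugation and release them afterwards, had both of their leading genes among the 4 smallest unadjusted p, in opposite directions. Atg4c (chromosome 4, 99193934 to 99259787) had 10.86, 9.43 and 8.22 FPKM in the knockout-labelled libraries and 11.7, 11.3 and 10.95 FPKM in the control libraries. Atg4d (chromosome 9, 21265293 to 21277772) had 4.95, 6.68 and 6.73 FPKM in the knockout-labelled libraries and 4.82, 4.62 and 4.99 FPKM in the control libraries. Atg4c had a log2 difference of -0.24 (standard error 0.11), and its knockout-labelled library 1 was just below the lowest control. Atg4d had a log2 difference of 0.28 (standard error 0.13), and its knockout-labelled library 1 lay inside the control range. Neither passed (limma adjusted p = 0.868 for each). Of the exon bases of Atg4d 19.3% overlap other genes, chiefly Kri1 on the opposite strand, so the value of Atg4d is uncertain. Kri1 was at 2.72 ± 0.322 FPKM in the knockout-labelled libraries and 2.61 ± 0.341 FPKM in the control libraries (SD, n = 3 each). Atg4b, the protease of broadest activity, was at 4.599, 4.95 and 5.27 FPKM in the knockout-labelled libraries and at 5.04, 4.44 and 4.81 FPKM in the control libraries, with overlapping groups. The X-linked Atg4a averaged 1.05 ± 0.341 FPKM in the knockout-labelled libraries and 1.13 ± 0.0665 FPKM in the control libraries (SD, n = 3 each). It shares 60.7% of its words with Atg4a-ps, so the 2 cannot be separated with certainty. Atg4a-ps, annotated as protein-coding in the table, was at 1 to 4 reads per library and was not tested.

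Receptors tie cargo to the autophagosome membrane. Nbr1, a receptor for ubiquitinated cargo, was at 126, 97.4 and 62.4 FPKM in the knockout-labelled libraries and at 115, 110.4 and 89.6 FPKM in the control libraries. Knockout-labelled library 1 was highest and library 3 lowest of the 6, which gave the widest interval of all members, from -0.77 to 0.40 around a log2 difference of -0.19. Optn, which encodes optineurin, was at 39.4, 39.1 and 36.9 FPKM in the knockout-labelled libraries and at 40.4, 36.8 and 37.6 FPKM in the control libraries. Sqstm1, which encodes p62, was at 23.9, 30.2 and 28.3 FPKM in the knockout-labelled libraries and at 26.6, 25.5 and 28.4 FPKM in the control libraries. Both had overlapping groups and log2 differences of 0.01 and 0.03. The opposite-strand gene Mrnip covers most of the 17.3% of Sqstm1 exon bases that overlap other genes, so the value of Sqstm1 is uncertain. Mrnip was at 4.20, 5.03 and 4.43 FPKM in the knockout-labelled libraries and at 3.16, 3.52 and 4.03 FPKM in the control libraries.

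**Figure D2:**
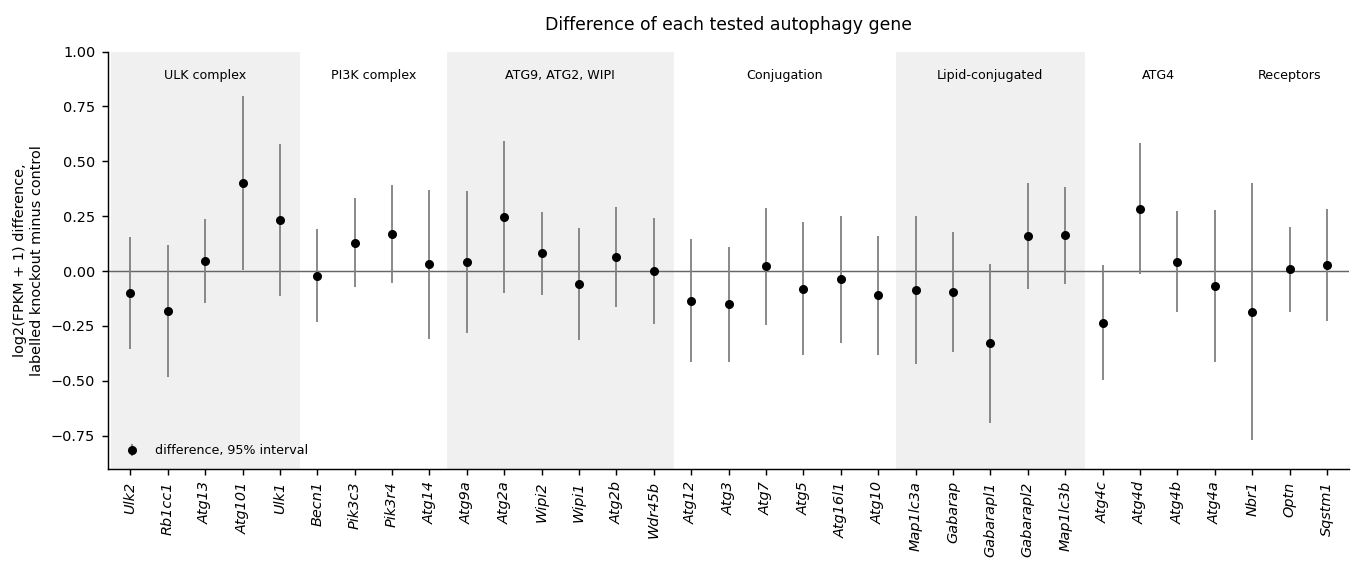
Difference in log2(FPKM + 1), labelled knockout minus control, of the 33 tested autophagy genes, by role; points are the limma estimates and bars their 95% intervals. The points run from -0.33 (Gabarapl1) to 0.40 (Atg101), and only the interval of Atg101 leaves out 0, before adjustment for the number of genes.

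Related genes were also set against each other within each library, as ratios of FPKM, whose size and spread varied from pair to pair. Map1lc3a was 22.5, 14.96 and 17.6 times as high as Map1lc3b in the knockout-labelled libraries and 25.4, 21.2 and 19.3 times in the control libraries. The deposited length was 1181 bases for Map1lc3a and 7517 for Map1lc3b. Their reads per library were 2804 to 3874 and 932 to 1290, so part of this lead comes from the division by length. Ulk2 exceeded Ulk1 by 12.9, 9.60 and 7.09 times in the knockout-labelled libraries and by 14.8, 12.2 and 10.8 times in the control libraries. In each of the 6 libraries the first gene of both pairs led, and for both pairs the groups overlapped. Nbr1 was 2.20 to 5.30 times as high as Sqstm1 over the knockout-labelled libraries and 3.16 to 4.33 times over the control libraries.

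Of 14 such ratios, 3 did not overlap between the groups, all lower in the knockout-labelled libraries. Over all pairs of genes tested and above 0 in every library, with the gene of higher mean on top, 8.79% of ratios did not overlap and 4.14% did so with lower values in the knockout-labelled libraries. The 14 were chosen after the values were seen and were not tested, so the count is a description only. Gabarapl1 over Gabarapl2 was 5.41, 4.09 and 3.65 in the knockout-labelled libraries against just under 6 in control library 1 and 6.32 and 6.19 in control libraries 2 and 3. Gabarap over Gabarapl2 was 14.6, 11.4 and 13.8 in the knockout-labelled libraries and 15.8, 15.5 and 16.6 in the control libraries. These 2 ratios share a denominator, whose own value is uncertain. Atg4c over Atg4d was 2.193, 1.41 and 1.22 in the knockout-labelled libraries and 2.42, 2.44 and 2.196 in the control libraries, so the groups nearly touched.

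**Figure D3:**
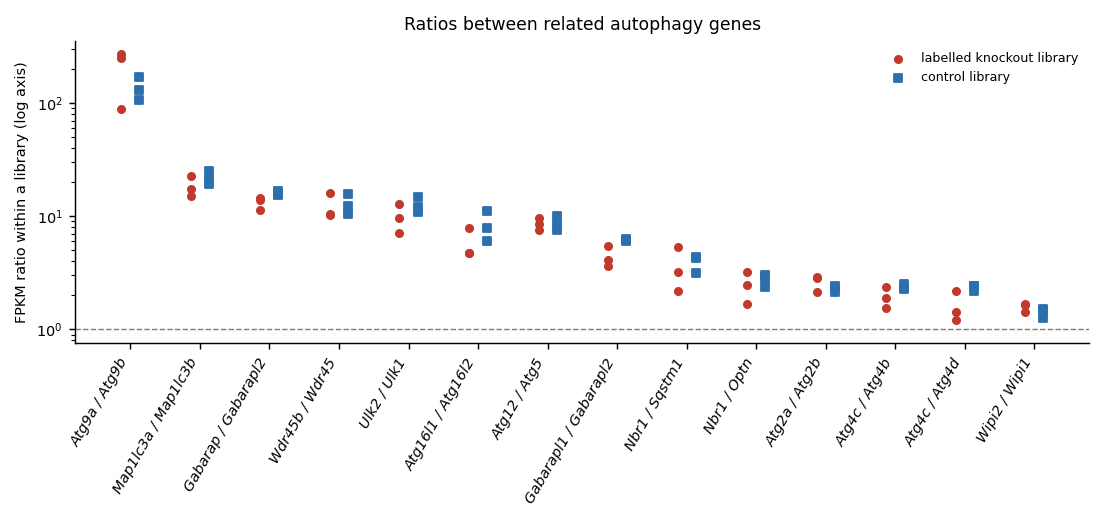
Ratio of FPKM between 2 related autophagy genes within each library (log axis); circles are knockout-labelled libraries, squares control libraries, and the dashed line marks equal levels. All ratios lie above 1 in every library, from 1.22 for Atg4c over Atg4d to 269 for Atg9a over Atg9b. The gene of higher mean was put on top in each pair, so ratios above 1 were largely set by that choice. Atg9b had 15 to 38 reads per library, so its ratio is uncertain.

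The knockout-labelled libraries differed among themselves, over the members much as over all genes. Library 1 lay inside the control range for 18 of the 33 members (54.5%, against 57.4% of all genes tested), library 2 for 10 (30.3%, against 35.9%) and library 3 for 11 (33.3%, against 35.6%). Without knockout-labelled library 1, 9 of 34 tested members (26.5%) had an unadjusted p under 0.05, against 18.2% of all genes tested, and 0 passed (smallest limma adjusted p = 0.152). The 5 with higher values were Atg4d, Atg2a, Ulk1, Map1lc3b and Atg101, where 7.82% of all genes were higher by this rule, and the 4 with lower values were Gabarapl1, Atg4c, Rb1cc1 and Atg12, where 10.4% of all genes were lower. Their log2 differences without that library ran from -0.47 for Gabarapl1 to 0.50 for Atg101.

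Leaving out any of the other 5 libraries did not give such counts. The members with an unadjusted p under 0.05 were 0 without knockout-labelled library 2 (2.49% of all genes), 0 without knockout-labelled library 3 (3.09%), 0 without control library 1 (3.18%), 0 without control library 2 (2.7%) and 1, Atg101, without control library 3 (3.46%). The 9 genes kept their direction in each of these 5 fits, several with smaller differences. They had been picked by the fit on knockout-labelled libraries 2 and 3. Each of the 5 fits keeps at least 1 of those libraries, so the kept direction is no separate support. Without knockout-labelled library 3 the log2 difference was -0.18 for Gabarapl1, -0.14 for Atg4c, -0.07 for Rb1cc1, -0.08 for Atg12 and 0.13 for Ulk1. Without knockout-labelled library 2 it was 0.11 for Atg2a and -0.08 for Atg12. Atg101 was at 0.26 without control library 2 and at 0.56 without control library 3.

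Markers of testis cell types varied between the same libraries. Summed over 10 of 10 late spermatid markers, the level was 15861, 9285 and 8211 FPKM in the knockout-labelled libraries and 18739, 15220 and 10937 FPKM in the control libraries. Summed over 9 of 9 Sertoli markers it was 482, 622 and 629 FPKM in the knockout-labelled libraries and 498, 479 and 510.1 FPKM in the control libraries. Knockout-labelled libraries 2 and 3 thus had the lowest late spermatid and highest Sertoli sums. Round spermatid markers (9 of 9 above 0 in all libraries) summed to 489 to 620 FPKM in the knockout-labelled libraries and 560.3 to 641 FPKM in the control libraries. Macrophage markers (8 of 8) summed to 32.3 to 46.9 FPKM in the knockout-labelled libraries and 31.2 to 34.8 FPKM in the control libraries. Myoid markers (5 of 5) summed to 40.4 to 64.5 FPKM in the knockout-labelled libraries and 37.0 to 43.04 FPKM in the control libraries. Spermatocyte markers (9 of 9) summed to 373 to 429 FPKM in the knockout-labelled libraries and 424 to 445 FPKM in the control libraries. Spermatogonial markers (8 of 8) summed to 43.5 to 61.3 FPKM in the knockout-labelled libraries and 45.6 to 48.9 FPKM in the control libraries. Leydig markers (6 of 6) summed to 202 to 361 FPKM in the knockout-labelled libraries and 305 to 351 FPKM in the control libraries. Red cell markers (3 of 5 above 0 in all libraries, with Hba-a2 and Hbb-bt listed at 0 in some) summed to 7.26 to 55.5 FPKM in the knockout-labelled libraries and 7.03 to 45.98 FPKM in the control libraries. By the mean of log2(FPKM + 1) over a list, centred on the 6 libraries, knockout-labelled library 1 lay inside the control range for 7 of the 9 lists. It was below it for spermatocyte markers, at 0.037 against 0.043 to 0.095 in the control libraries, and for spermatogonial markers, at -0.0998 against -0.091 to -0.0069. The germ cell and Sertoli markers fit the labelled tissue. In whole testis, fewer cells of a type and less RNA per cell cannot be told apart, and the part of cell composition in the differences of autophagy genes was not tested.

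**Figure D4:**
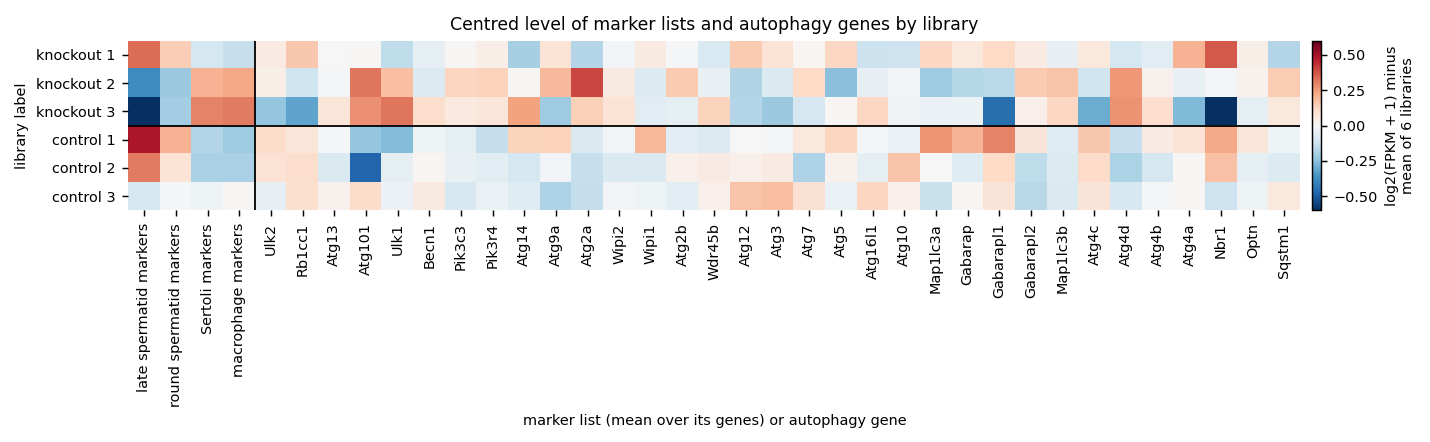
Level of 4 marker lists (left of the line) and of the 33 tested autophagy genes in each library, as log2(FPKM + 1) minus the mean of the 6 libraries; knockout-labelled libraries are above the line and control libraries below, and colours end at 0.6 in either direction. Knockout-labelled library 1 lies within the control range for the 4 lists drawn (late spermatid, round spermatid, Sertoli and macrophage). Knockout-labelled libraries 2 and 3 have low late spermatid levels (-0.38 and -0.65). Whether the autophagy genes follow the marker lists was not tested.

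Around the core, 74 further genes of the pathway were looked at, of which 68 were tested and 0 passed. By mean 41 were higher and 27 lower in the knockout-labelled libraries, against 9315 higher and 9853 lower of all genes tested. The median log2 difference of the 68 was 0.07, against -0.0058 over all genes tested. Among the 68, 1 gene had an unadjusted limma p under 0.05 (1.47%, against 3.87% of all genes tested). The medians were 0.08 for 18 upstream regulators, 0.08 for 9 partners of the phosphatidylinositol 3-kinase complex, -0.06 for 17 other receptors, 0.06 for 14 fusion factors and 0.12 for 10 lysosomal genes. Nrbf2, a subunit that joins the ATG14 form of the kinase complex, had the smallest unadjusted p of these, at 2.81, 4.06 and 3.34 FPKM in the knockout-labelled libraries and 2.16, 2.82 and 2.21 FPKM in the control libraries. Fkbp8, a mitophagy receptor, averaged 31.8 ± 3.19 and Stbd1, which binds glycogen, 1.22 ± 0.236 FPKM in the knockout-labelled libraries, against 27.1 ± 1.67 and 1.79 ± 0.427 FPKM in the control libraries (SD, n = 3 each). Each of these 3 genes had a limma adjusted p of 0.868.

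The most abundant genes of the 5 lists were close between the groups. Lamp1, a major lysosomal membrane protein, averaged 177 ± 4.94 FPKM in the knockout-labelled libraries and 184 ± 1.52 FPKM in the control libraries. Sh3glb1, the membrane-bending partner of beclin 1 and UVRAG, averaged 108 ± 13.8 FPKM in the knockout-labelled libraries and 121 ± 8.87 FPKM in the control libraries. Pink1, the kinase that flags damaged mitochondria, averaged 92.6 ± 7.92 FPKM in the knockout-labelled libraries and 82.4 ± 3.28 FPKM in the control libraries, with groups separated by less than 0.01 FPKM. Mtor, the kinase that restrains autophagy, averaged 41.7 ± 4.90 FPKM in the knockout-labelled libraries and 39.3 ± 2.04 FPKM in the control libraries. Ykt6, a SNARE of autophagosome fusion, averaged 22.5 ± 1.37 FPKM in the knockout-labelled libraries and 22.6 ± 0.767 FPKM in the control libraries (SD, n = 3 each throughout). Their log2 differences were between -0.17 and 0.16.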

How the data were processed

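Testis RNA of 6 libraries was sequenced. Per the labels' protocols, Trizol was used for extraction and a SMARTER mRNA-Seq kit for the libraries. The authors deposited FPKM per gene with gene length and position. Builds GRCm38 and mm10 are listed in the submitters' processing notes. For the aligner, the counter, the annotation and the filters, nothing is given in the sources used here. Multiplied by gene length, 100% of the values above 0 came out as whole numbers of a fixed unit in each library (tolerance 0.001 reads, relative for large values), and these were taken as reads.

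The test covered genes averaging 0.5 FPKM or more and used limma 3.58.1 (R 4.3.3) on log2(FPKM + 1) (mean-variance trend, group only, Benjamini-Hochberg over all genes tested). The procedure was tested on simulated data. Alternatives were a pseudocount of 0.1, other filters (none, 2 FPKM), quantile and total-read scaling, the replicate number as a block, no trend, limma-voom on recovered reads (genes averaging 10 reads or more), and each library left out. Sequence sharing was the percent of distinct 31-base words in GENCODE M21 transcripts, on either strand, found in other genes, and overlaps were taken from its exons. Promoter windows are RefSeq's.

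Members and lists were chosen with earlier results of these data known. Values in all libraries are printed for the 6 members of smallest p and for the 3 highest of each role (all for lipid-conjugated proteins and receptors). Of other pathway genes, the 4 of smallest p and the highest of each list were chosen, 1 of which is not reported here. Genes that share sequence or overlap, and the members named for ratios or without knockout-labelled library 1, were chosen after their values were seen.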

Additional observations from a re-analysis of the deposited data

How the results depend on the processing

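Under each of the 15 alternative settings 0 members of the autophagy core and 0 other pathway genes passed. Over all genes, limma-voom on the recovered reads called 1 gene of 20556, which is no member. The other 14 settings called 0. The median log2 difference of the members, 0.0078, was 0.032 with libraries scaled to the same sum of reads and 0.065 without both knockout-labelled library 1 and control library 3 (chosen after seeing the data). Leaving out 1 library at a time gave medians from -0.018 to 0.027, so its sign is not settled. The cause was not tested. With the replicate number as a block, 0 genes and 0 members passed (smallest limma adjusted p among members 0.662). Unadjusted p under 0.05 was reached by 1411 of 19168 genes and 2 of 33 members, against 741 genes and 1 member without the block. Same-numbered libraries had correlations of their deviations of 0.286, 0.0413 and 0.198. Knockout-labelled libraries 1 and 3 correlated best with the control of the same number, and library 2 with control library 3 (0.17). The labels state no pairing, so the main fit used none, and whether the numbers pair the libraries is not settled. Over all settings, 11 of 34 named genes had a difference of either sign, none of them called. For members with few reads, such as Atg10 with 24 to 36 reads per library, depth limits what could be seen. Sequence sharing leaves the values of Atg4a, Atg4a-ps, Atg4d, Atg9a, Becn1, Gabarapl1, Gabarapl2, Sqstm1 and Wdr45 uncertain. These are the 9 of 37 members with over 15% of their words in other genes.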
